A study of Mus musculus with 6 samples.

Results

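Mature neutrophils carry antimicrobial proteins and proteases in granules that are filled one after the other as the cell matures. The genes described here encode cargo of the secondary (specific) and tertiary (gelatinase) granules: Ltf, Camp, Ngp, Lcn2, Chil3, Cd177, Mmp8, Mmp9, Mmp25 and Hp. They were taken by name from the table of normalized counts, and all 10 were found among its 55487 genes and passed the filter on low values. In the bone marrow, primary (azurophil) granule genes such as Mpo and Elane are switched on in promyelocytes, secondary granule genes in myelocytes and metamyelocytes, and gelatinase granule genes later still, so the order of the transcripts follows the order of maturation. C/EBP epsilon, a transcription factor of the granulocyte line, is needed for the secondary granule programme, and leukemic blasts arrested early in myeloid development are known for expressing little of it.

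The study transplanted MLL-AF9 leukemia cells, which carry a fusion of MLL with AF9, and sequenced poly(A)-selected RNA from bone marrow cells of femora and tibiae. The labels give the cells as GFP+ and the libraries as unstranded, the study's text as c-Kit+ and stranded, and the transcripts of late neutrophils and other lineages are described without assuming either gate. All 6 libraries shared CD45.2(+) donor cells that carried MA9, homozygous floxed Brd9 (Brd9fl/fl) and the Mx1-Cre transgene, in CD45.1(+) CD45.2(-) recipients, with C57BL/6 given as the strain. The recipients of 1000 cells were injected with PBS (3 libraries) or with 20 mg/kg pIpC (3 libraries), in 3 doses every other day from the day after the transplant, and cells were taken 10 days after the injections. The comparison addressed what deletion of Brd9, a bromodomain subunit of a BAF chromatin remodelling complex, did to leukemia cells in vivo. Mx1-Cre is driven by an interferon-inducible promoter that pIpC turns on, the labels name no Cre in the recipients' own cells, and neither group lacked Cre or the floxed alleles, so an effect of pIpC itself and an effect of the deletion cannot be told apart. Recipients were 6 weeks old and sublethally irradiated. Whether each library was 1 animal was not given in the sources used here, and the p-values measure the spread between these libraries, which may be technical.

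Brd9 itself did not fall in the libraries labelled pIpC. It was counted at 1927, 1946 and 1632 normalized counts in PBS replicates 1, 2 and 3 and at 2036, 2263 and 2011 in the libraries labelled pIpC, a log2 difference of 0.20 (limma, Benjamini-Hochberg adjusted p = 0.259). An exact two-sided permutation test gave p = 0.1, the smallest that 3 against 3 libraries allow. The floxed part is exons 4 to 6, which a count over the whole gene does not show separately. The study reports that this excision lowered Brd9 mRNA in whole bone marrow, backed by RNA-seq of stem and progenitor cells. It also reports inefficient loss of Brd9 in GFP+ marrow cells of leukemia recipients that died early after pIpC. Incomplete deletion and exchanged labels cannot be told apart in this table, and every direction given here follows the labels. The libraries held between 19277439 and 23586722 reads counted on genes. PBS replicate 3 stood apart: per gene, its chi-square against the other PBS libraries was 171 to 194, against 6.30 between PBS replicates 1 and 2 and 7.93 to 16.8 among the libraries labelled pIpC. Its levels relative to the mean of PBS replicates 1 and 2 moved with transcript length, from a median log2 ratio of 0.91 over 1415 genes with under 1000 bases of merged exons to -0.35 over 6950 genes with 4000 bases or more. Leukemia genes were low after pIpC by label: Hoxa9, a homeobox gene that MLL fusions keep on, stood at 4917 to 5301 normalized counts under PBS against 224 to 276, Hoxa10, Meis1 and Myb also fell, Kit was not called and Mecom rose. Markers of other cells moved as well. Erythroid markers (7 of 7 called higher) summed to 16.4 to 32.8 normalized counts under PBS and 2470 to 3685 in the libraries labelled pIpC, with Hbb-bs, Epor and Slc4a1 among those at 3 reads or fewer in every PBS library. B cell markers (7 of 7 higher, Ms4a1 and Pax5 among those at 3 reads or fewer under PBS) summed to 136 to 302 against 1150 to 1959, T and NK cell markers (4 of 6 tested, all higher) to 183 to 317 against 3795 to 4445 (nearly all of it Nkg7, at a mean of 4023, with Cd3d at 42.2 and Cd3e at 7.95), and megakaryocyte markers (4 of 4 higher) to 357 to 513 against 1304 to 1851. Basophil and mast cell markers (4 of 5 higher, Prss34 and Fcer1a at 3 reads or fewer under PBS) summed to 783 to 1906 against 4440 to 6658, and monocyte markers (4 of 5 higher) to 24513 to 28459 against 38493 to 42486. Most of the monocyte sum was Ly6c2, at means of 22949 under PBS and 30205 in the libraries labelled pIpC. The mean of F13a1 was 204 under PBS against 5815, and Csf1r was not called. Macrophage and stromal markers split, with 5 of 8 higher and 2 lower (Adgre1 and Vcam1), as did eosinophil markers, with 2 of 5 higher and 1 lower (Siglecf). The part these cells had in the granule gene results was not tested, and in bulk RNA more cells of a type and more RNA per cell cannot be told apart. Tested markers at 3 reads or fewer in every PBS library passed the filter on low values only through the libraries labelled pIpC. The marker counts depend in part on that filter. Over the 15020 genes tested, 25% were called higher and 20.4% lower.

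Of the 10 granule genes, 8 rose in the libraries labelled pIpC and none fell, where 25% of the 15020 genes tested rose and 20.4% fell (limma on log2(normalized count + 1), adjusted p under 0.1). The 8 were Ltf, Mmp8, Ngp, Mmp25, Lcn2, Camp, Cd177 and Mmp9, with ratios of group means between 9.33 for Mmp9 and 171 for Ltf. Chil3 and Hp, the members with the highest levels per length under PBS, were not called. The median log2 fold change of the 10 was 5.53, against 0.01 over all genes tested. In 9 of the 10 the libraries labelled pIpC all lay above the PBS libraries, against 30.5% of all genes tested, with Hp the member whose groups overlapped. Without PBS replicate 3, all 10 were called higher, against a background of 34.5%.

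**Figure D1:**
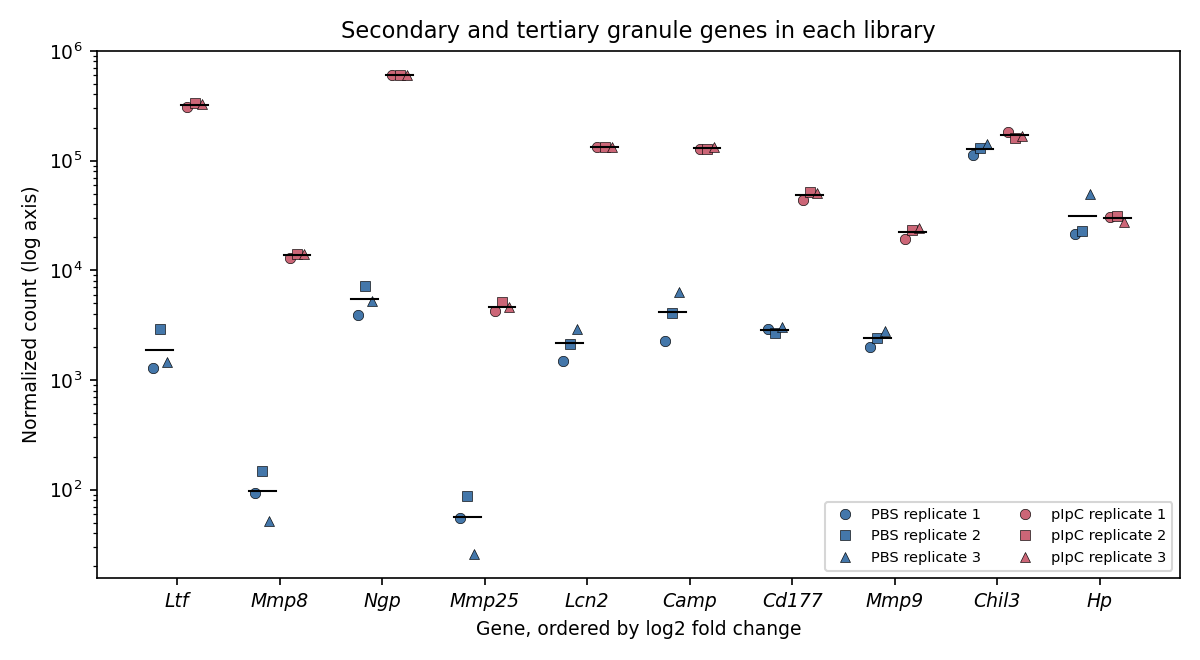
Normalized counts (y axis, log scale) of the 10 granule genes (x axis, ordered by log2 fold change) in each library; circles, squares and triangles are replicates 1, 2 and 3, blue is PBS, red is pIpC by label, and short bars are group means. The red points lie above the blue ones for every gene except Hp, where PBS replicate 3, at 49234, is the highest library.

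The sequence ahead of the start site is shown for 5 members, the 4 most abundant of those that rose and Chil3, which did not pass, because members that moved together can be set beside one that did not. Each line gives the 250 bases before the RefSeq transcription start (GRCm38.p6), written 5′ to 3′ on the strand of the gene. Capitals mark GCAAT or its complement ATTGC (one end of the palindrome that C/EBP factors bind), GAGGAA or TTCCTC (the core of PU.1 sites) and AAATCA or TGATTT (the core of GFI1 sites). The windows are chr9:111019042-111019291 on the plus strand for Ltf, chr9:110419558-110419807 on the plus strand for Ngp, chr2:32387740-32387989 on the minus strand for Lcn2, chr9:109849457-109849706 on the minus strand for Camp and chr3:106167565-106167814 on the minus strand for Chil3. GENCODE also has transcripts of Ltf, Ngp, Lcn2 and Camp that start within or before these windows.
Ltf: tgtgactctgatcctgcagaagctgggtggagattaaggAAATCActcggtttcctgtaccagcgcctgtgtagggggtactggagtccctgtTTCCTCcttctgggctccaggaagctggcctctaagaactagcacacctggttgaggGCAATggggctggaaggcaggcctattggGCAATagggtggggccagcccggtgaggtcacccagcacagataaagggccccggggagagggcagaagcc
Ngp: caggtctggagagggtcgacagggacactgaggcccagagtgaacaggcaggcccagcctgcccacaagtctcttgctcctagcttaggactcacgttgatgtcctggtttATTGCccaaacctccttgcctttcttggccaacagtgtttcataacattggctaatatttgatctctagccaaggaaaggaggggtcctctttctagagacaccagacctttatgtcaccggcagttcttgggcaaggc
Lcn2: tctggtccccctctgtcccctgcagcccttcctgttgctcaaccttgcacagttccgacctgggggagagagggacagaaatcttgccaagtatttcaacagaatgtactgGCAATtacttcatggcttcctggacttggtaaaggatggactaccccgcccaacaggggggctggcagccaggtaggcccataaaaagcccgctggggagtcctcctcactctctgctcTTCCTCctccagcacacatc
Camp: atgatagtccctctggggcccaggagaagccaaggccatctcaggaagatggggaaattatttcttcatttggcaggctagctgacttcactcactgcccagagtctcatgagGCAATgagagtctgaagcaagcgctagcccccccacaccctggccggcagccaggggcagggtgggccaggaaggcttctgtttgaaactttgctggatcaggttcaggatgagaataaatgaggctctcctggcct
Chil3: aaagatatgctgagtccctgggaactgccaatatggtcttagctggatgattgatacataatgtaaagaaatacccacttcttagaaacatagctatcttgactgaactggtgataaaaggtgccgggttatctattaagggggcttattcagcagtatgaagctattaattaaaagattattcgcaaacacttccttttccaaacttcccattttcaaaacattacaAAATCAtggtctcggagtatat

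Of the 8 members matched in the RefSeq promoter table (all but Mmp9 and Hp), 5 held GCAAT on either strand: Ltf, Camp, Ngp, Lcn2 and Mmp8. The same letters stand in 23.1% of all 32851 promoter windows of that length. In Ngp and Lcn2 the match began 139 bases before the start and in Camp 137 bases before it, while Ltf held a pair, at 100 and 71 bases. GAGGAA was found in Ltf, Lcn2, Cd177, Mmp8 and Mmp25, against 23.3% of all windows, and AAATCA in Ltf, Chil3 and Mmp8, against 12.4%. In these 8 windows no match shared a base with another. A match describes these letters in these windows and is no evidence of binding, and Cd177 and Mmp25 rose with no GCAAT in theirs.

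Ltf (ENSMUSG00000032496, chr9:111019271-111042767, plus strand) encodes lactoferrin, which binds iron. It was counted at 1293, 2923 and 1451 normalized counts in PBS replicates 1 to 3 and at 307576, 333624 and 327573 in the libraries labelled pIpC. The lowest library labelled pIpC was over all PBS libraries, and the PBS libraries differed more among themselves (coefficient of variation 47.6%) than those labelled pIpC (4.22%). The log2 fold change was 7.51 ± 0.31 (SE, n = 3 and 3, limma adjusted p = 1.85e-05), the largest of the 10.

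Ngp (ENSMUSG00000032484, chr9:110419747-110423012, plus strand) encodes neutrophilic granule protein, a cystatin-related protein of secondary granules. It stood at 3908, 7249 and 5246 normalized counts under PBS and at 605556, 598464 and 602721 in the libraries labelled pIpC, where the coefficient of variation was 0.593%. The groups did not overlap, the log2 fold change was 6.83 ± 0.26 (limma adjusted p = 1.68e-05), and Ngp was the gene with the most reads in all 3 libraries labelled pIpC.

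Lcn2 (ENSMUSG00000026822, chr2:32384633-32388252, minus strand) encodes lipocalin 2, which captures bacterial siderophores. Its PBS libraries had 1487, 2120 and 2887 normalized counts and those labelled pIpC 131853, 134075 and 133143. All of the second group were higher, by 5.99 ± 0.25 on the log2 scale (limma adjusted p = 1.77e-05). Camp (ENSMUSG00000038357, chr9:109847379-109849617, minus strand), the precursor of the cathelicidin peptide, had 2264, 4048 and 6282 normalized counts under PBS and 127040, 127674 and 133977 in the libraries labelled pIpC. It rose by 5.07 ± 0.35 (limma adjusted p = 9.36e-05), and PBS replicate 3 was its highest PBS library, at 1.99 times the mean of the other two.

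Chil3 (ENSMUSG00000040809, chr3:106147554-106167564, minus strand) encodes Ym1, a chitinase-like protein without chitinase activity. It had 111904, 130979 and 141502 normalized counts under PBS and 181378, 161786 and 166974 in the libraries labelled pIpC. The libraries labelled pIpC were all above those under PBS, but the ratio of means was 1.33 and the log2 difference of 0.41 (95% interval -0.13 to 0.95) did not pass (limma adjusted p = 0.198). The direction depended on the scaling, and the call on the scaling, on the test and on 1 library. Chil3 passed at 0.41 with DESeq2 (adjusted p = 0.0157) and without a variance trend over intensity (limma adjusted p = 0.0877). The difference was 0.49 without PBS replicate 3 (limma adjusted p = 0.00583) and 0.67 with each library's length trend removed (limma adjusted p = 0.0321). It was -0.59 after quantile normalization (limma adjusted p = 0.00485), a scaling under which the median of all genes tested was -0.12. Chil3 and its neighbour Chil4 are near-identical copies between which reads may be divided, and Chil4 had 32.0 to 109 normalized counts in any library.

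Hp (ENSMUSG00000031722, chr8:109575128-109579172, minus strand) encodes haptoglobin, the binder of free hemoglobin, which neutrophils store in secondary granules. Its PBS libraries had 21297, 22609 and 49234 normalized counts and those labelled pIpC 30515, 31124 and 27818. The groups overlapped through PBS replicate 3, which was higher than every other library, at 2.24 times the mean of PBS replicates 1 and 2, while those lay below all 3 libraries labelled pIpC. The log2 difference was 0.05 (95% interval -0.74 to 0.84, limma adjusted p = 0.915), turned to -0.076 with edgeR and -0.061 with DESeq2 on the recovered reads, and was 0.44 without PBS replicate 3 (limma adjusted p = 0.0013).

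The granule proteases rose together. Mmp8 (ENSMUSG00000005800, chr9:7558456-7568485, plus strand), the neutrophil collagenase, went from 94.3, 147 and 52.1 normalized counts under PBS to 12889, 14138 and 14108 in the libraries labelled pIpC. The log2 fold change was 7.24 ± 0.35 (limma adjusted p = 2.79e-05), and the groups did not overlap. Mmp25 (ENSMUSG00000023903, chr17:23628311-23645277, minus strand), a membrane-anchored metalloproteinase also called leukolysin, went from 55.4, 87.0 and 26.0 to 4282, 5085 and 4585, a log2 fold change of 6.50 ± 0.40 (limma adjusted p = 5.97e-05). A processed pseudogene lies on the opposite strand within Mmp25, with a mean of 25.3 normalized counts in the libraries labelled pIpC, and the labels describe unstranded libraries. Mmp9 (ENSMUSG00000017737, chr2:164940780-164955850, plus strand), gelatinase B and the namesake enzyme of the gelatinase granule, started far higher, at 1979, 2434 and 2786 normalized counts under PBS, and reached 19425, 23521 and 24204. Its log2 fold change of 3.23 ± 0.17 (limma adjusted p = 3.90e-05) was the smallest of the 8 that passed. The 95% intervals of Mmp8 (6.41 to 8.06) and Mmp9 (2.82 to 3.64) did not overlap, and the ratio of Mmp8 to Mmp9 normalized counts was 0.0187 to 0.0603 in the PBS libraries against 0.583 to 0.664 in those labelled pIpC.

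Cd177 (ENSMUSG00000052212, chr7:24743983-24760311, minus strand) encodes a GPI-anchored surface protein that is held in secondary granule membranes. It was counted at 2927, 2689 and 3028 normalized counts under PBS and at 43351, 51690 and 50818 in the libraries labelled pIpC. The PBS libraries were closer to each other than for any other member (coefficient of variation 6.04%), the groups did not overlap, and the log2 fold change was 4.07 ± 0.14 (limma adjusted p = 1.68e-05).

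**Figure D2:**
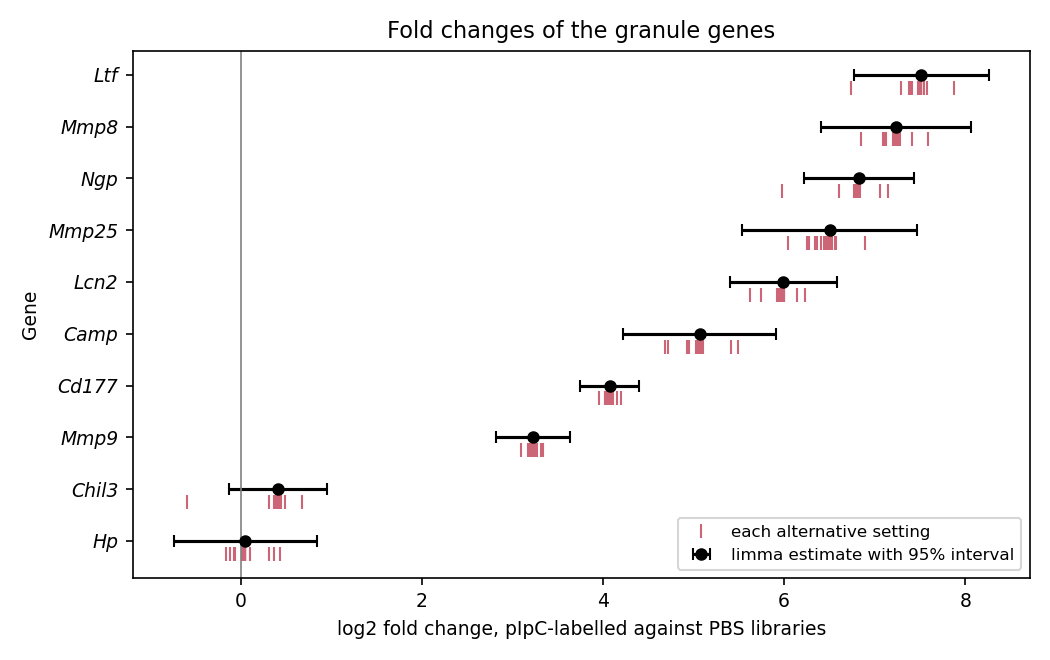
log2 fold change of each granule gene (x axis, libraries labelled pIpC against PBS), with black points and bars for the limma estimate and its 95% interval and red ticks for the value under each alternative setting. The 8 genes from Mmp9 upward stay right of 0 under all settings, and Chil3 and Hp have settings on both sides of 0.

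The order of the members changed between the groups. Per kilobase of merged exons, the PBS libraries were led by Chil3 (68569 to 86705 normalized counts per kilobase) and Hp (13261 to 30656), followed by Camp (2987 to 8287) and Ngp (3198 to 5932), whose ranges overlapped. Cd177, Lcn2, Mmp9 and Ltf followed in that order with each range overlapping the next, and Mmp8 (21.5 to 60.5) and Mmp25 (4.91 to 16.4) came last. In the libraries labelled pIpC the order was Ngp (489741 to 495545 per kilobase), Camp (167599 to 176750), Chil3 (99134 to 111138), Ltf (89153 to 96703) and Lcn2 (50268 to 51115), all apart from each other, and then Hp and Cd177, whose ranges overlapped, Mmp9 and Mmp8, whose ranges overlapped, and Mmp25. Among all genes ranked by mean level per kilobase, Ngp moved from place 233 to place 2, Camp from 192 to 5, Ltf from 2051 to 14 and Lcn2 from 1304 to 20, while Chil3 stayed at place 11 and Hp went from 60 to 49.

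**Figure D3:**
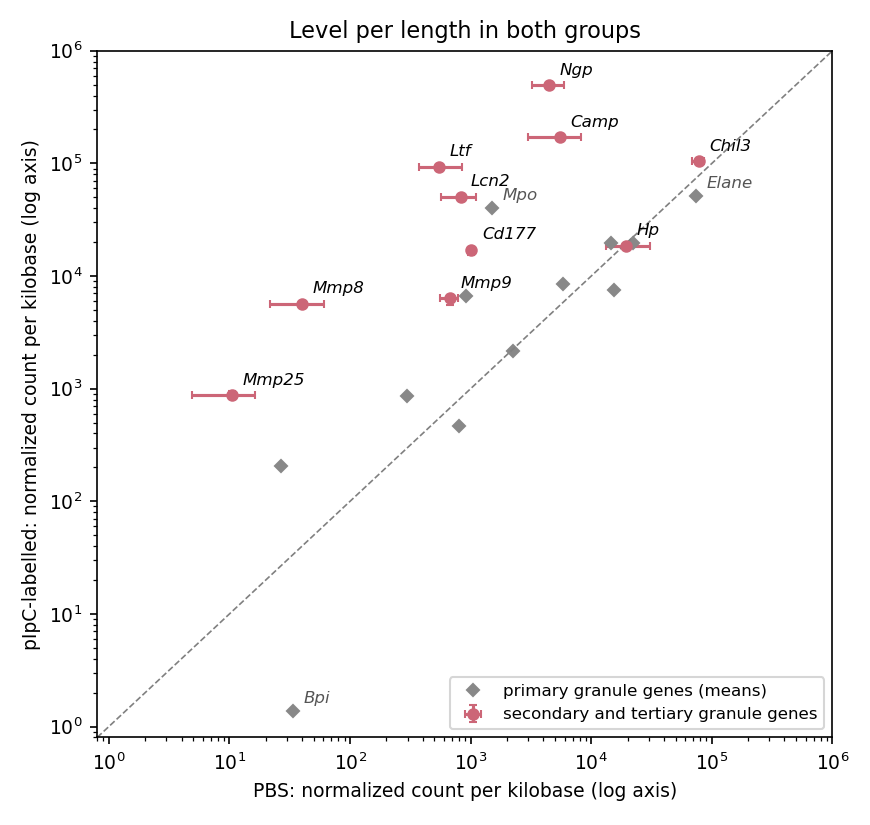
Mean normalized count per kilobase of merged exons under PBS (x axis) against that in the libraries labelled pIpC (y axis), both on log scales; red points are the granule genes with bars for the lowest and highest library, grey diamonds are primary granule genes, and the dashed line marks equal levels. Chil3 and Hp lie at the line and the other 8 red points above it, with Ngp highest.

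Together the 10 genes took 0.760% to 0.898% of the reads counted on genes in the PBS libraries and 6.31% to 6.51% in those labelled pIpC. Nearly all of the gain came from the 8 that rose, which went from between 0.0724% and 0.111% to between 5.40% and 5.66%. Chil3 and Hp together held 0.688% to 0.794% in the PBS libraries and 0.845% to 0.913% in those labelled pIpC. Chil3 alone supplied 66.6% to 76.0% of the members' reads under PBS and 10.9% to 12.4% in the libraries labelled pIpC, and Ngp 2.47% to 4.14% against 40.4% to 41.4%.

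**Figure D4:**
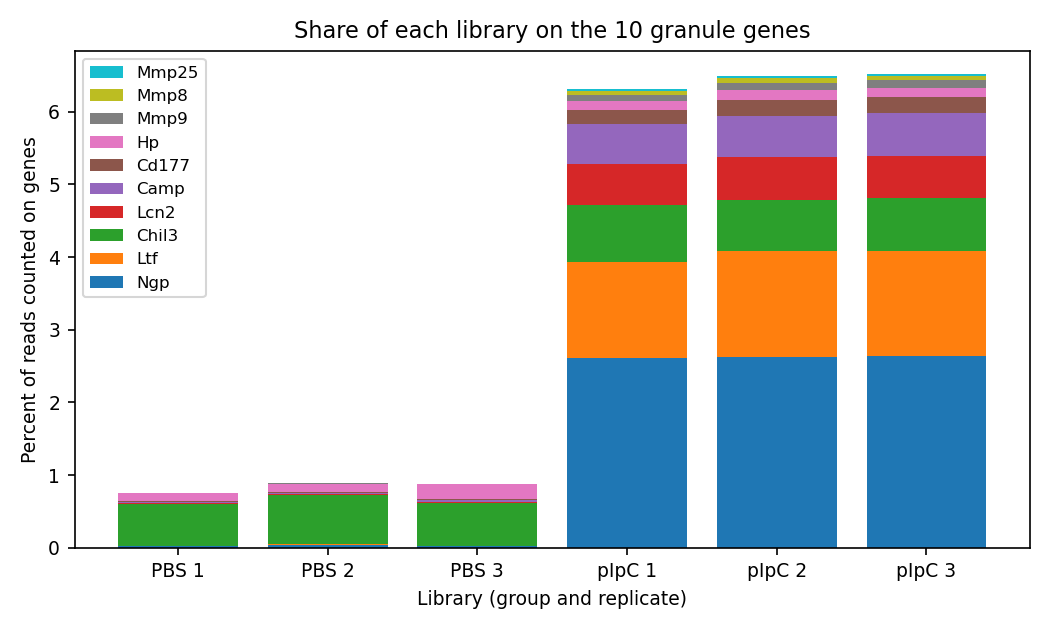
Percent of the reads counted on genes (y axis) that fell on the 10 granule genes in each library (x axis), stacked by gene. The PBS bars stand between 0.760% and 0.898% and are mostly Chil3, and those of the libraries labelled pIpC stand between 6.31% and 6.51% with Ngp, Ltf and Chil3 as the thickest bands.

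The members also varied within the PBS group, and not together. Ltf, Ngp, Mmp8 and Mmp25 were highest in PBS replicate 2, and Camp, Lcn2, Chil3, Cd177, Mmp9 and Hp in PBS replicate 3. Against the mean of PBS replicates 1 and 2, replicate 3 held 2.24 times as much Hp, 1.99 times as much Camp and 1.60 times as much Lcn2, but 0.688 times as much Ltf, 0.432 times as much Mmp8 and 0.366 times as much Mmp25. Camp has 758 bases of merged exons and Mmp25 has 5303, and Spearman's rho between this ratio and exon length was -0.50 over the 10 members and -0.48 over 14364 genes tested, all read from the same 3 libraries. With the length trend of each library removed, the 8 called members remained called and the log2 fold change of Camp was 5.49.

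The wider granule lists gave the members their context. Of 24 other cargo and membrane genes of specific granules, gelatinase granules and secretory vesicles, 22 were tested. Of these, 16 rose, 2 fell and 4 were not called (Orm2, Cyba, Cnn2 and Tcn2), where 25% of all genes tested rose and 20.4% fell. Their median log2 fold change was 2.59. The highest was Chil1, a chitinase-like protein of specific granules, at 30.3, 63.8 and 30.6 normalized counts under PBS and 6994, 8766 and 7804 in the libraries labelled pIpC (log2 fold change 7.61 ± 0.30, limma adjusted p = 1.77e-05). The lowest was Slpi, the secretory leukocyte protease inhibitor, at 19370, 21354 and 53726 against 2423, 2266 and 2501, a log2 fold change of -3.55 ± 0.38 (limma adjusted p = 0.000515). The other gene that fell was Olfm4, a secondary granule protein found in a subset of neutrophils, at 15442, 11755 and 14715 against 1566, 3634 and 9420, with a log2 fold change of -1.88 ± 0.59 (limma adjusted p = 0.0467) and a spread among the libraries labelled pIpC wider than under PBS. That call was lost without pIpC replicate 2 (limma adjusted p = 0.133), and the log2 fold change was -1.25 without pIpC replicate 1 and -2.54 without pIpC replicate 3.

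The primary granule genes, which are expressed earlier in maturation, split: of 12, 6 rose, 3 fell (Bpi and Srgn among them) and 3 were not called (Elane, Prtn3 and Cd63), and the median log2 fold change was 0.25. The 6 of 12 that rose stand beside 25% of all genes tested, and the 3 of 12 that fell beside 20.4%. With edgeR 4 of the 12 rose, beside 23.7% of all genes, and with the replicate block also 4, beside 22.6%. Without PBS replicate 3 the count was 8, beside 34.5%. Mpo, myeloperoxidase, was the highest, with 5163, 5397 and 4776 normalized counts under PBS and 143966, 129651 and 136560 in the libraries labelled pIpC (log2 fold change 4.74 ± 0.15, limma adjusted p = 1.37e-05). Elane, neutrophil elastase, had 51669, 59448 and 108326 against 51557, 48408 and 51984, with overlapping groups and no call (log2 difference -0.45, limma adjusted p = 0.281). Bpi, whose product permeabilizes bacteria, was the lowest at -4.17 ± 0.38 on the log2 scale (limma adjusted p = 0.000262). The ratio of Ltf to Mpo normalized counts was 0.251 to 0.542 in the PBS libraries and 2.14 to 2.57 in those labelled pIpC.

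Late neutrophil genes rose in 9 of 11 cases and none fell, where 25% of all genes tested rose and 20.4% fell. Stfa2l1 was among those not called. The median log2 fold change was 2.96. Ly6g, the surface antigen used to identify mouse neutrophils, was highest, at 2.60, 27.3 and 28.3 normalized counts under PBS and 4063, 4525 and 4357 in the libraries labelled pIpC (log2 fold change 8.23 ± 0.78, limma adjusted p = 0.000309). S100a8 and S100a9, the calprotectin subunits of the neutrophil cytosol, went from 2636 to 9855 and from 4028 to 10684 normalized counts under PBS to between 287198 and 315077 and between 498642 and 568509.

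**Figure D5:**
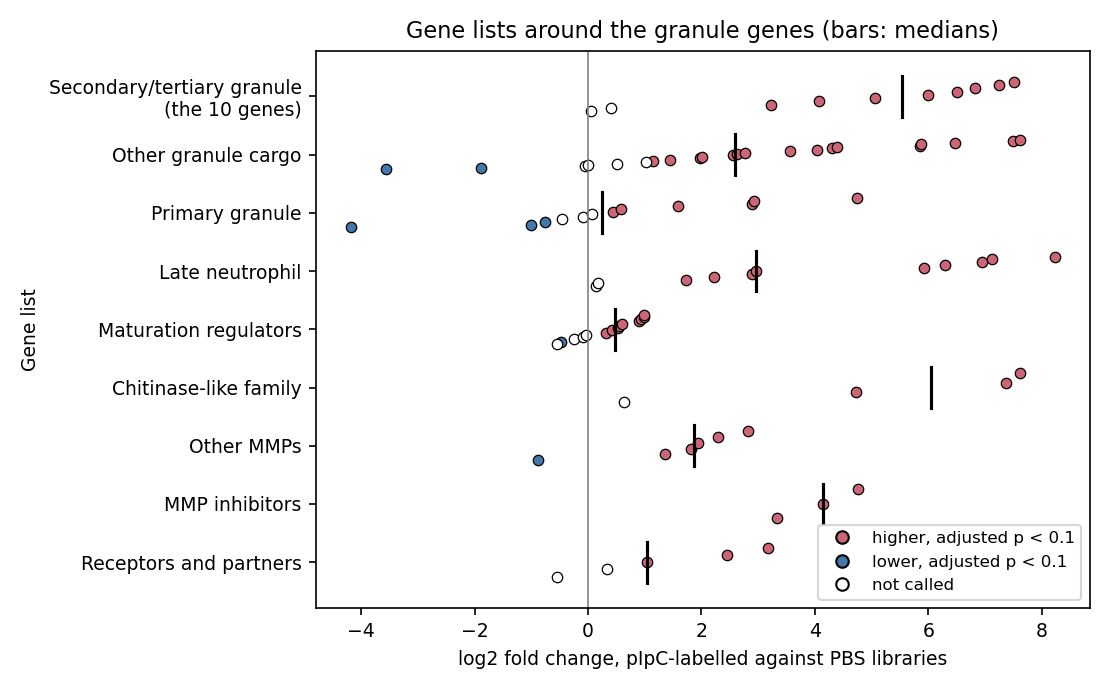
log2 fold changes (x axis, libraries labelled pIpC against PBS) of every tested gene in 9 lists (y axis), with red for genes called higher, blue for genes called lower, white for genes not called, and black bars for list medians. The 10 granule genes have a median of 5.53, the other granule cargo 2.59 and the primary granule genes 0.25.

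Among the factors that direct granule gene expression, log2 fold changes lay between -0.54 and 0.99. Of 14 transcription factors and receptors of granulocyte maturation, 9 rose, 1 fell and 4 were not called (Cebpb, Spi1, Runx1 and Cux1). Of all genes tested, 25% rose and 20.4% fell. Without PBS replicate 3, 10 of the 14 rose and 4 fell. Of all genes tested, 34.5% then rose and 4597 of 15020 fell. Cebpe, the factor of the secondary granule programme, had 2677, 3464 and 7483 normalized counts under PBS and 8695, 7782 and 8073 in the libraries labelled pIpC. PBS replicate 3 came close to the other group, and the log2 fold change of 0.99 ± 0.36 passed (limma adjusted p = 0.0723) but not with edgeR (0.83, adjusted p = 0.122) or when any library other than PBS replicate 3 was left out. Klf5 (0.98 ± 0.13, limma adjusted p = 0.00113), Csf3r, the receptor for G-CSF (0.94 ± 0.16, limma adjusted p = 0.00366), Stat3, which signals below it (0.91 ± 0.21, limma adjusted p = 0.0146), and Fli1 (0.59 ± 0.11, limma adjusted p = 0.00583) rose. Gfi1, a repressor needed for neutrophil development, fell by 0.48 ± 0.12 on the log2 scale (limma adjusted p = 0.0196). The calls of Cebpa (0.53), Cebpd (0.56), Cebpg (0.42) and Irf8 (0.31) were lost under several alternatives.

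Genes that act with or beside the members were followed from lists named for their function. Of 17 other matrix metalloproteinases, 6 were tested, 5 rose (Mmp2, Mmp13, Mmp14, Mmp23 and Mmp28) and Mmp19 fell by 0.88 ± 0.29 on the log2 scale (limma adjusted p = 0.0524), a call lost when any library other than PBS replicate 3 was left out. None of the 5 exceeded 171 normalized counts in any library, and Mmp19, at 220 to 565, was the highest of the family outside the granules. Over all genes tested, 25% rose. Mmp2, Mmp13 and Mmp23, with PBS means of 9.80, 3.95 and 4.43, passed the minimum mean only through the libraries labelled pIpC. Of the genes too low to test, Mmp12 and Mmp17 were lower in every library labelled pIpC than under PBS, and Mmp11 and Mmp15 higher. Mmp15 had at most 1 read in any PBS library and at most 3 in those labelled pIpC. Over the genes tested, 30.5% had every library labelled pIpC above PBS, and 3951 of 15020 had every one below. The split of the 6 tested genes depends in part on the minimum mean. The metalloproteinase inhibitors tested all rose: Timp2 by 3.33 ± 0.31 and Reck, a membrane-anchored inhibitor, by 4.14 ± 0.28, while Timp3 was at 3 reads or fewer in every PBS library and at a mean of 59.2 ± 7.74 (SD, n = 3) in those labelled pIpC, at least 19.7-fold higher than 3 reads per library. Timp1, an inhibitor of Mmp9, was too low to test, at no more than 4.53 normalized counts in any library, and so was Timp4. Timp3, with a PBS mean of 1.54, passed the minimum mean only through the libraries labelled pIpC. That all inhibitors tested rose therefore depends in part on the minimum mean.

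In the chitinase-like family 3 of 4 tested genes rose, against 25% of all genes tested. Beside Chil1, these were Chil5 (log2 fold change 4.72 ± 0.25) and Chit1, an active chitinase, which was at 3 reads or fewer in every PBS library and at 149, 234 and 260 normalized counts in those labelled pIpC, at least 71.2-fold higher than 3 reads per library. Chil4 was not called. Chil5 and Chit1, with PBS means of 8.40 and 0.337, passed the minimum mean only through the libraries labelled pIpC. The count of 3 of 4 therefore depends in part on that filter. Of the receptors and partners of the granule proteins, 5 of 8 were tested. Cd163, the receptor for haptoglobin bound to hemoglobin, rose by 3.18 ± 0.59, Lrp1, which takes up lactoferrin, by 2.46 ± 0.45, and P2rx7, a receptor of the cathelicidin peptide, by 1.04 ± 0.33, a call lost without PBS replicate 2 or any library labelled pIpC, while Slc22a17, a lipocalin 2 receptor, and Pecam1, a binding partner of Cd177, were not called.

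Ltf, Camp, Ngp and Mmp8 lie on the same chromosome, and Camp, Ngp and Ltf within 1195389 bases of it (chr9:109847379-111042767). Of the 19 other genes tested in that interval, 4 rose (21.1%, against 25% of all genes tested), 4 fell (against 20.4%) and 11 were not called, with a median log2 fold change of 0.03.

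The 5 other genes whose profile over the 6 libraries lay nearest to the median profile of the members were Cnn3, S100a6, Orm1, Cxxc5 and Ltb, at Euclidean distances of 0.635 to 0.885 between centred log2 values, among 10468 genes with a mean of at least 100 normalized counts. Orm1, an acute phase protein of secondary granules, went from 19.9 to 53.2 normalized counts under PBS to between 1668 and 2045. Camp (0.585) and Lcn2 (0.759) were the members nearest to that profile, and Hp (6.59) and Chil3 (6.14) the farthest. The centred values were not scaled, so this distance mostly follows the size of the fold change. The log2 fold changes of the 5 genes were 4.73 to 5.87, beside a median of 5.53 for the members. All 5 had PBS means under 100 (6.02 to 84.4) and passed that minimum only through the libraries labelled pIpC. Shared regulation was not tested.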

How the data were processed

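RNA-seq was analysed from 6 libraries, 3 per group. The authors deposited 1 table of normalized gene counts, each column scaled by its own factor, and the unit was taken as a signal. Dividing each column by the value of 1 read gave whole numbers for 100% of the values (tolerance 0.01), and these reads entered the count tests. The submitters' processing notes name GRCm38, HISAT2 (version 2.2.1), SAMtools, Subread, featureCounts and edgeR and describe unstranded libraries of GFP+ cells, whereas the study's text describes c-Kit+ cells, stranded libraries, STAR and RSEM. Gene positions and merged exon lengths came from GENCODE release M21.

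Genes with a mean of at least 10 normalized counts (15020) entered limma (version 3.58.1, under R 4.3.3) as log2(normalized count + 1), with a variance trend over intensity. Calls used the study's threshold of 0.1 on Benjamini-Hochberg adjusted p, without a block for replicate number. Fold changes are on that scale and understate changes of low genes. Alternatives were median-centred log ratios, quantile normalization, TMM log2 CPM, pseudocounts of 0.1 and 10, a minimum mean of 50 or no minimum, no intensity trend, edgeR (version 4.0.16) and DESeq2 (version 1.42.0) on recovered reads, an adjusted p under 0.05, the replicate block and each library left out. Removal of the length trend was chosen after seeing the data, as was the count of late neutrophil genes under the alternatives.

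Named genes are the 10 members, Brd9, the highest and lowest gene of each list, tested genes of the regulator, metalloproteinase, inhibitor, partner and chitinase-like lists, and the 5 nearest profiles; others were named after their values were seen. The members and lists were chosen with earlier results of these data known. The script was tested on simulated data. No column was left out. Some list genes are not reported here by name.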

Additional observations from a re-analysis of the deposited data

How the results depend on the processing

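The 8 called members were called in the same direction under all 19 alternatives (152 of 152 values, largest adjusted p 0.00146, smallest log2 fold change 3.10). Chil3 was 0.41 and passed with DESeq2 (adjusted p = 0.0157) and without the intensity trend (limma adjusted p = 0.0877), passed at 0.67 with the length trend removed, reversed to -0.59 after quantile normalization, and ranged from 0.32 to 0.49 when each library was left out. Hp was -0.061 with DESeq2, -0.076 with edgeR and 0.37 after quantile normalization (limma adjusted p = 0.0499), and ranged from -0.16 to 0.44 when each library was left out. The causes were not tested. Quantile normalization moved the share of calls that were higher from 55.1% to 44.3% and the median of all genes tested to -0.12. Genes called over the whole table ranged from 4650 (without pIpC replicate 2) to 9783 (without PBS replicate 3), with 6901 in edgeR and 7451 in DESeq2. Same-numbered libraries did not pair (correlations of -0.12, 0.14 and 0.04); the replicate block gave 6095 calls and kept the calls of the 8 members. Reversed genes among the other named ones were Stfa2l1 (-0.20 with DESeq2, -0.22 with edgeR, -0.019 after quantile normalization, and -0.43 to 0.79 with each library left out), Csf1r (-0.061 after quantile normalization, -0.021 with the length trend removed), Slc22a17 (-0.19 after quantile normalization), Cux1 (-0.21 to 0.069 with each library left out), Cpa3 (-0.32 to 0.37 with each library left out, 0.21 with the length trend removed) and Spi1 (-0.24 to 0.17 with each library left out, 0.054 with the length trend removed). No cause was tested for these. The fewest reads on a member were 23 (Mmp25, PBS replicate 3), and genes at 3 reads or fewer in a group have only bounds.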
